A study of Mus musculus with 6 samples.

Results

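Lysophosphatidic acid (LPA) is a small signalling lipid, and 10 mouse genes that make it, break it down or sense it were followed here: the enzymes Liph, Lipi and Enpp2, the phosphatases Plpp1, Plpp2 and Plpp3, and the receptors Lpar1, Lpar3, Lpar4 and Lpar6. A gene entered when the platform annotation gave its symbol, alone, to a probe set, which held for 9 of the 10, each with 1 probe set, out of 19938 genes measured in all. Enpp2 was not analysed here, since no probe set used here was paired with it. The set was selected on function and with the log2 differences between the genotypes on these same arrays already known, Liph being among the largest increases, so the differences are given as a description, with no p-value.

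The study deleted Scc1, called Rad21 in current annotation, whose protein is the kleisin subunit of cohesin. RNA came from female mouse embryonic stem (ES) cells of a mixed C57BL/129 background, derived and grown in 2i medium, a cocktail of kinase inhibitors used here with LIF, on laminin. The control group had the genotype Scc1 wt/wt ERT2-Cre (3 arrays) and the other group Scc1 lox/lox ERT2-Cre (3 arrays), and all 6 cultures had received 80 nM 4-hydroxytamoxifen (4-OHT) for 24 h, the drug that brings ERT2-Cre into the nucleus. That dose is the one on the sample labels, while the series' design text writes the unit as mM. Both groups therefore carried Cre and drug, and cells without drug were not analysed here. The labels do not say how many independently derived lines stand behind each genotype, so effects of the deletion and earlier differences between the lines cannot be told apart.

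LPA that acts as a signal arises mainly outside the cell or in its outer leaflet. Enpp2, known as autotaxin, splits it from lysophosphatidylcholine, while the membrane-bound lipase Liph and its relative Lipi cut it from phosphatidic acid. Plpp1 to Plpp3 are membrane phosphatases whose catalytic side faces outward and which remove the phosphate, ending the signal. The Lpar genes encode G protein-coupled receptors that reach, among others, the transcription cofactor Yap.

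Rad21 stood at 10.05, 9.99 and 10.01 (log2 intensity) on the wt/wt arrays and at 6.08, 6.06 and 6.14 on the lox/lox arrays, so the deleted gene bore out the labels. Array medians lay between 4.85 and 4.94, and correlations within a genotype between 0.9922 and 0.9947. All 10 measured markers of naive ES cells lay above the array median on all arrays. Their mean per array was 10.77 to 10.82 in wt/wt and 10.49 to 10.63 in lox/lox cells. In limma, 4 were called lower (Sox2, Nanog, Esrrb and Fgf4) and 1 higher (Utf1). Over all genes, 3.61% were called lower and 2.55% higher. Mean levels per array were 4.73 to 4.91 in wt/wt and 4.82 to 4.94 in lox/lox cells for 9 fibroblast genes, 4.51 to 4.82 and 4.58 to 4.69 for 10 genes of primitive endoderm, 5.86 to 5.98 and 5.83 to 5.91 for 10 of trophectoderm, and 4.73 to 4.86 and 4.91 to 4.93 for 10 of neural progenitors. Above the array median on every array were 5, 2, 8 and 2 of these lists. Of their genes, 1 was called lower among those of primitive endoderm, and 1 higher and 2 lower among those of trophectoderm, beside the same shares over all genes. None was called in the other lists, although the neural progenitor mean was higher on every lox/lox array than on every wt/wt array. The part of these cell types in the differences below was not tested. Bulk RNA cannot tell fewer cells of a type from less RNA per cell. The arrays wt/wt replicate 2 and lox/lox replicate 3 stood apart from the others of their genotype. They lay at 0.576 and 0.537 on the first principal component of the deviations from the genotype means (41.2% of the variance). The other arrays lay on the opposite side, and wt/wt replicate 1 was nearly as far out, at -0.475.

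Liph and Plpp3 differed most between the genotypes, in opposite directions. Liph, which makes LPA, was 3.13-fold higher in lox/lox cells, and Plpp3, which removes it, was 2.89-fold lower. Plpp1 was also lower, by 1.44-fold, while Lipi, Plpp2 and the 4 receptors differed by at most 1.16-fold. In the limma fit over all genes, at an adjusted p under 0.05, 1 of the 9 measured genes was higher and 2 were lower. Of all genes tested, 2.55% were higher and 3.61% lower. Since the contrast served to pick the genes, nothing is read from that comparison. The median log2 difference of the 9 genes was -0.05, against -0.008 over all genes.

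**Figure D1:**
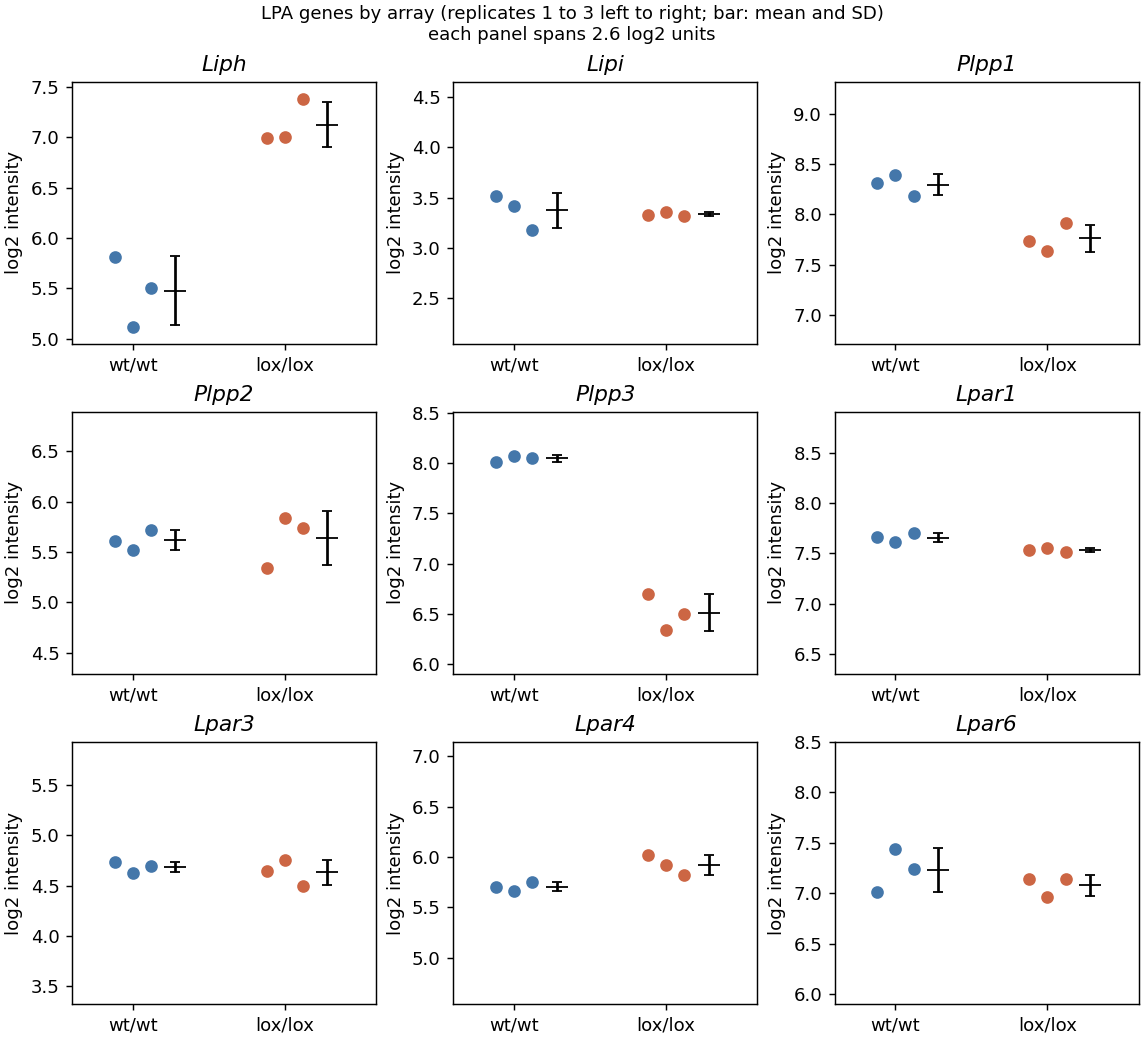
Log2 intensity (vertical axis) of the 9 measured LPA genes on each array, with wt/wt in blue and lox/lox in orange, replicates 1 to 3 from left to right, and a black bar for the mean and SD of 3 arrays. Every panel spans the same range, so that the gaps of Liph (5.48 against 7.12) and Plpp3 (8.04 against 6.52) can be compared by eye with the small shifts of the receptors.

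Among the enzymes that make LPA, Liph read 5.81, 5.12 and 5.50 on the wt/wt arrays and 6.99, 7.00 and 7.38 on the lox/lox arrays (log2 intensity). All 3 lox/lox arrays lay above all 3 wt/wt arrays. The wt/wt arrays were the more scattered, with replicate 2 lowest, and the highest value was that of lox/lox replicate 3. The means were 5.48 ± 0.35 and 7.12 ± 0.22 (SD, n = 3), a log2 difference of 1.65 with a standard error of 0.17. Of all 19938 genes, Liph ranked 25 by the size of its difference. The difference ran from 1.47 to 1.81 when each array was left out in turn, and it was 1.34 without both arrays that stood apart. Lipi, the closest relative of Liph in the list, read 3.52, 3.42 and 3.18 in wt/wt and 3.33, 3.36 and 3.32 in lox/lox cells. Its groups overlapped, all 6 values lay below the array medians, and its log2 difference was -0.03 (95% interval -0.25 to 0.18).

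The RefSeq promoter windows of Liph and Plpp3 are shown because these are the genes with the largest differences; each is the 250 bases before the annotated start, in build GRCm38.p6, 5′ to 3′ on the gene's own strand. Part of the Liph window lies within the full span of the gene, since another of its transcript models starts further upstream. Capitals mark matches to any of 7 motifs searched on both strands, which were chosen with these data known.
Liph (chr16:21995543-21995792, minus strand): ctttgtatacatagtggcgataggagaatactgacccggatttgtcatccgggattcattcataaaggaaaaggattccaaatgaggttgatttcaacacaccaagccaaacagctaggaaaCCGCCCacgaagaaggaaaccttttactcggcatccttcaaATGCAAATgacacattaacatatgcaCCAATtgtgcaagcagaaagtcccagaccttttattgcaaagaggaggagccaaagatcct
Plpp3 (chr4:105157097-105157346, plus strand): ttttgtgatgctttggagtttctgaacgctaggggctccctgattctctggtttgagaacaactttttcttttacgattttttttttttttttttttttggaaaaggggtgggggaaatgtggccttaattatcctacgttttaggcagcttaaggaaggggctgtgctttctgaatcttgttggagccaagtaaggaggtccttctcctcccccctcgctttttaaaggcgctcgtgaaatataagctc
The Liph window held the octamer ATGCAAAT, the site of POU factors such as Oct4, at bases 87 to 80 before the start. It also held a GC box (GGGCGG, on the other strand) at bases 128 to 123 and a CCAAT box (CCAAT) at bases 61 to 57. The Plpp3 window held none of the 7 motifs, which included the E-box CACGTG bound by Myc, the sequence TATAAA known from core promoters, the motif GGAATG that TEAD factors bind, and a core of the CTCF motif spelled AGGGGGC. Of 32851 such windows, 1.6% held the octamer, 32.7% the GC box, 33.8% the CCAAT box, 6.02% the E-box, 12.4% the core promoter motif TATAAA, 12.6% the TEAD motif and 9.43% the CTCF core. No motif overlapped another in the Liph window. Windows were given for 7 of the 10 genes, 9 windows in all, and not for Lipi, Enpp2 and Plpp1. Among these 7 genes the octamer was in the window of Liph alone. The TEAD motif was likewise in that of Lpar6 alone and TATAAA in that of Lpar4 alone. Windows of Plpp2, Lpar1, Lpar3 and Lpar4 also held the GC box, and those of Lpar1 and Lpar4 the CCAAT box. A match is a run of letters and not a shown binding site.

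The 3 phosphatases differed among themselves. Plpp3 read 8.01, 8.07 and 8.05 on the wt/wt arrays and 6.70, 6.34 and 6.50 on the lox/lox arrays (log2 intensity). Every lox/lox array lay below every wt/wt array, and the wt/wt values were close together. The means were 8.04 ± 0.04 and 6.52 ± 0.18 (SD, n = 3), a log2 difference of -1.53 with a standard error of 0.10. Plpp3 ranked 31 of all genes by the size of its difference, with a range of -1.62 to -1.44 over the fits without 1 array.

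Plpp1, a broadly expressed phosphatase of the same family, read 8.31, 8.39 and 8.18 in wt/wt and 7.73, 7.64 and 7.91 in lox/lox cells. These groups did not overlap either, and the highest lox/lox value was that of replicate 3. The means were 8.29 ± 0.10 and 7.76 ± 0.14 (SD, n = 3), a log2 difference of -0.53 with a standard error of 0.09, which ran from -0.60 to -0.47 when each array was left out. Plpp2 read 5.61, 5.52 and 5.72 in wt/wt and 5.34, 5.84 and 5.74 in lox/lox cells. Its groups overlapped, with lox/lox replicate 1 below all wt/wt arrays and replicates 2 and 3 above them, and its log2 difference was 0.02 (95% interval -0.25 to 0.30).

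The 4 receptors showed small differences. Lpar1, known for its part in the developing nervous system, read 7.66, 7.61 and 7.70 in wt/wt and 7.53, 7.55 and 7.51 in lox/lox cells. All lox/lox arrays lay just below the wt/wt arrays, with a log2 difference of -0.13 (95% interval -0.29 to 0.03). Lpar4, an X-linked receptor of the purinergic-like branch, read 5.70, 5.66 and 5.75 in wt/wt and 6.02, 5.92 and 5.82 in lox/lox cells. All lox/lox arrays lay just above the wt/wt arrays, with a log2 difference of 0.21 (95% interval 0.03 to 0.39), and neither gene was called in limma over all genes.

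Lpar6, the receptor that acts downstream of Liph in hair follicles, read 7.01, 7.44 and 7.24 in wt/wt and 7.14, 6.96 and 7.14 in lox/lox cells. The groups overlapped and the log2 difference was -0.15 (95% interval -0.40 to 0.10). The gene lies within the span of Rb1, the retinoblastoma gene, whose log2 difference was -0.09 (95% interval -0.32 to 0.15). Lpar3, of the same branch as Lpar1, read 4.73, 4.63 and 4.69 in wt/wt and 4.65, 4.75 and 4.50 in lox/lox cells, below the median of every array. Its groups overlapped, and its log2 difference was -0.05 (95% interval -0.24 to 0.14). A dim probe set can hide a change, so Lipi and Lpar3 bear less weight than the other genes.

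**Figure D2:**
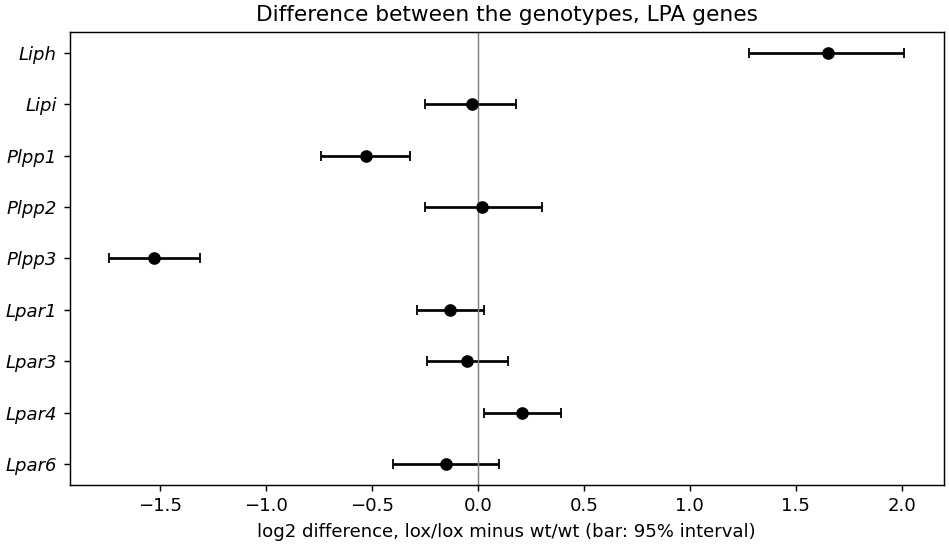
Log2 difference of each measured LPA gene, lox/lox minus wt/wt (horizontal axis), with its 95% interval from limma; n = 3 arrays per genotype. Liph (1.65) lies far to the right, Plpp3 (-1.53) and Plpp1 (-0.53) to the left, and the intervals of Lipi, Plpp2, Lpar1, Lpar3 and Lpar6 cross 0.

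In 5 of the 9 genes the arrays of the genotypes did not overlap, 2 with lox/lox above wt/wt (Liph and Lpar4) and 3 with it below (Plpp1, Plpp3 and Lpar1). Over all genes tested, such separation was seen in 22.8%, of which lox/lox lay above in 10.1% and below in 12.7% of all genes. Again the members were picked with this contrast in view.

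The other enzymes that can supply LPA, or are related to Liph and Enpp2, formed a wider list of 19 genes, of which 17 were measured. In limma 1 rose, 2 fell and 14 did not pass (17.6%, against 6.16% of all genes), with a median log2 difference of -0.05. The list was chosen with earlier results of these data known, so nothing is read from that share. Lpl, the lipoprotein lipase of the Liph family and known for cleaving triglycerides, had a log2 difference of -0.76 (SE 0.10, limma adjusted p = 0.0015), from 5.59, 5.64 and 5.37 to 4.63, 4.87 and 4.84. Enpp3, a nucleotide pyrophosphatase related to Enpp2, rose by 0.51 (SE 0.11, adjusted p = 0.0264 in limma). Gdpd1, a lysophospholipase D that yields LPA, fell by 0.48 (SE 0.12, adjusted p = 0.0427 in limma). Both of these were dim, at means of 4.08 and 4.14 in wt/wt cells, and each passed in 2 of the 6 fits without 1 array. Their adjusted p reached 0.0945 for Enpp3 without lox/lox replicate 2 and 0.129 for Gdpd1 without lox/lox replicate 1, and Lpl alone was called without lox/lox replicate 3. Neither passed without both arrays that stood apart, and quantile normalization took Gdpd1 to an adjusted p of 0.0517 in limma. The call of Lpl held in all 6 of these fits, with an adjusted p of at most 0.0075 in limma.

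A list of 25 genes, all measured, held enzymes that use LPA or related lipids, and relatives of the phosphatases. It also held acyltransferases, among them those that turn LPA into phosphatidic acid. No gene passed in limma, while 3 of the 25 reached an unadjusted p under 0.05, as did 18% of all genes tested. The median log2 difference was 0.04. The smallest p values were those of Lpcat2, a lysophospholipid acyltransferase (log2 difference 0.30, adjusted p = 0.0767 in limma), Agpat4, which acylates LPA (0.44, adjusted p = 0.169), and Plppr1, a neuronal relative of the phosphatases (0.21, adjusted p = 0.251). Agpat4 was called without wt/wt replicate 2 and Lpcat2 without lox/lox replicate 3, 1 gene each.

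Of 12 other receptors for lysolipids, including those for sphingosine 1-phosphate, 10 were measured. No gene passed in limma, 1 of the 10 reached an unadjusted p under 0.05 (18% of all genes), and the median log2 difference was 0.04. Lpar2, the nearest relative of Lpar1 and Lpar3 in this list, had a log2 difference of 0.36 (adjusted p = 0.143 in limma), and was called when lox/lox replicate 1 was left out. S1pr3 had -0.18 (adjusted p = 0.29) and Gpr55 0.08 (adjusted p = 0.754).

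The G proteins, exchange factors and effectors through which LPA receptors act numbered 20, with 18 measured. No gene passed in limma, 5 of the 18 reached an unadjusted p under 0.05 (18% of all genes), and the median log2 difference was -0.12. Gna12, a G protein alpha subunit, had a log2 difference of -0.28 (adjusted p = 0.0828), and passed when dim genes were removed or when limma was run with trend and robust. Arhgef1, a guanine nucleotide exchange factor, had 0.26 (adjusted p = 0.156 in limma) and Gna11, which couples to phospholipase C, -0.22 (adjusted p = 0.173).

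Yap, its partners, Srf and known target genes, which lie at the end of that route, formed a list of 20 genes, all measured. In limma 5 fell, none rose and 15 did not pass (25%, against 6.16% of all genes), with a median log2 difference of -0.08. This list too was chosen with earlier results of these data known, so nothing is read from that share. Wwtr1, the Yap relative known as Taz, showed a log2 difference of -0.59 (SE 0.08, limma adjusted p = 0.00129), from 7.76, 7.88 and 7.82 to 7.25, 7.16 and 7.26. Tead4, a DNA-binding partner of Yap, fell by 0.59 (SE 0.08, adjusted p = 0.00159 in limma), from 7.56, 7.71 and 7.70 to 7.01, 7.11 and 7.07. In both genes the arrays of the genotypes were far apart compared with their spread. Ccn1, a secreted Yap target also called Cyr61, fell by 0.73 (SE 0.14, adjusted p = 0.0122 in limma).

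Named after their values were seen, the remaining 2 were Ccn2, also called Ctgf (log2 difference -0.59, adjusted p = 0.0145 in limma), and the kinase gene Lats2 (-0.35, adjusted p = 0.0252). Wwtr1 and Tead4 passed in all 6 fits without 1 array, with adjusted p of at most 0.0111 and 0.0127. Ccn1 passed in 4 of these and reached 0.0638 without lox/lox replicate 2. Ccn2 passed in 3 of them, missing without wt/wt replicate 3, lox/lox replicate 2 or lox/lox replicate 3, where its limma adjusted p was 0.071, 0.0718 and 0.0573. Lats2 passed in 1, the one without lox/lox replicate 1, and reached an adjusted p of 0.101 without lox/lox replicate 2. Leaving out wt/wt replicate 3 gave 3 called genes in this list, and 2 when lox/lox replicate 2, lox/lox replicate 3 or both arrays that stood apart were left out. In 10 of the 20 genes all lox/lox arrays lay below all wt/wt arrays, and in none above, beside 12.7% below and 10.1% above over all genes. As with the share of calls, nothing is read from that comparison.

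**Figure D3:**
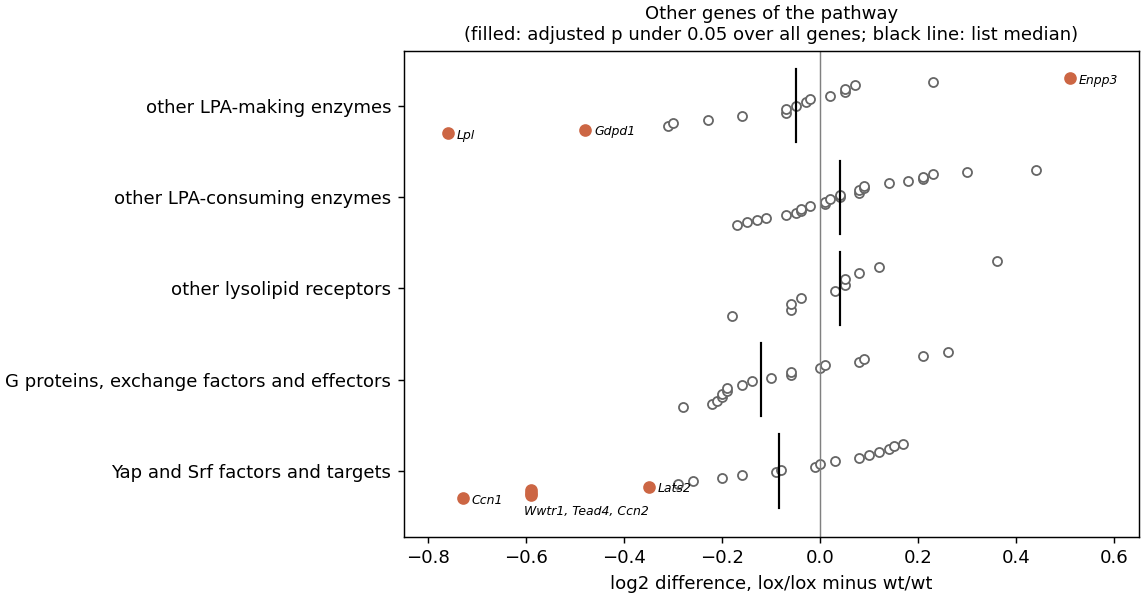
Log2 difference, lox/lox minus wt/wt (horizontal axis), of each measured gene of the 5 wider lists; filled points passed limma at an adjusted p under 0.05 over all genes, open points did not, and a black line marks the list's median. Called genes in the list labelled other LPA-making enzymes are Gdpd1, which yields LPA, and Lpl and Enpp3, relatives of Liph and Enpp2. Those in the Yap and Srf list are Ccn1, Ccn2, Wwtr1, Tead4 and Lats2.

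The LPA genes were next set beside their neighbours on the chromosome, the 2 measured genes on each side in RefSeq order. Of 40 such neighbours, none was higher and 1 was lower in limma (2.5%, against 6.16% of all genes). Beside Liph on chromosome 16 lie Map3k13 (log2 difference -0.00, adjusted p = 0.987), Tmem41a (0.29, adjusted p = 0.117), Senp2 (0.12, adjusted p = 0.566) and Tra2b (-0.04, adjusted p = 0.848), none of which passed in limma. Tmem41a was called without lox/lox replicate 3. The 1 lower neighbour, named after its value was seen, was Prkaa2, a catalytic subunit of AMP-activated kinase beside Plpp3 on chromosome 4 (log2 difference -0.39, adjusted p = 0.0452 in limma). It passed in 1 of the 6 fits without 1 array, the one without wt/wt replicate 3, and not after quantile normalization, with the replicate number as a block, with trend and robust moderation or without both arrays that stood apart (adjusted p = 0.0504, 0.0636, 0.0525 and 0.111 in limma).

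Enpp2 itself was not measured, but its place on chromosome 15 is close to Rad21, with 9 measured genes between them, of which none was higher and 1 was lower in limma, beside 2.55% higher and 3.61% lower over all genes. Its neighbours Mal2, Ccn3, Taf2 and Dscc1 had log2 differences of -0.03, 0.12, -0.10 and -0.37, with adjusted p of 0.887, 0.609, 0.648 and 0.0503 in limma. Dscc1, which helps load the replication clamp, passed in 1 of the 6 fits without 1 array, the one without wt/wt replicate 1. It also passed when dim genes were removed (limma adjusted p = 0.0331) and with the replicate number as a block (0.0379).

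**Figure D4:**
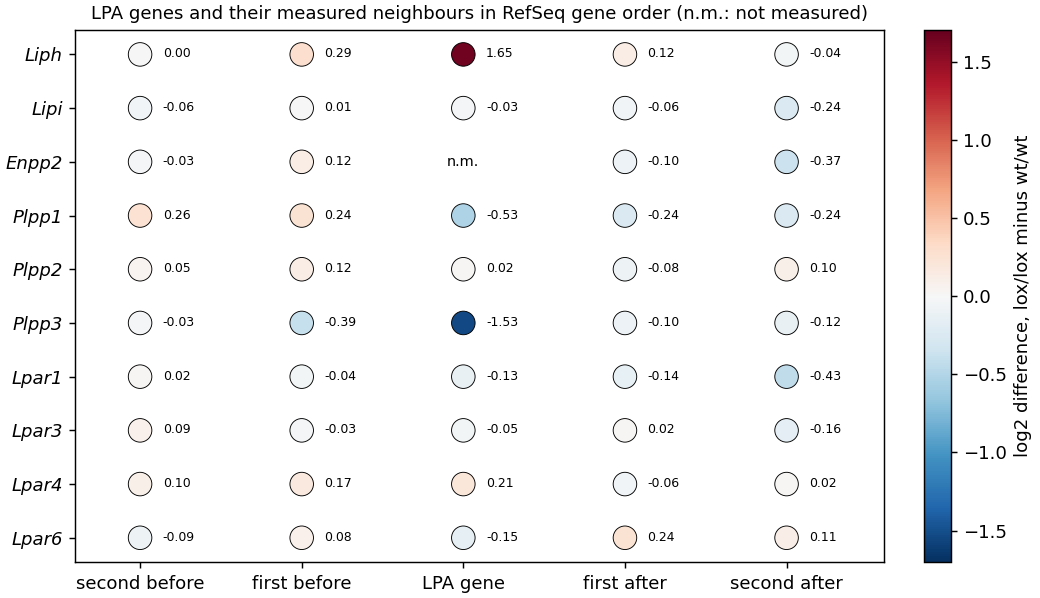
Log2 difference, lox/lox minus wt/wt (colour and printed value), of each LPA gene (middle column) and of the 2 measured genes before and after it in RefSeq order (other columns). The strong colours of Liph (1.65) and Plpp3 (-1.53) are not shared by their neighbours, which lie between -0.39 and 0.29.

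The genes whose profile over the 6 arrays was closest to that of Liph were found by the root mean square difference of log2 values after each gene was centred on its own mean. They were Ina, a neuronal filament gene (distance 0.162), Lefty1, an inhibitor of Nodal (0.168), and Hs6st2, a heparan sulphate sulphotransferase (0.210). Hs6st2 read 3.82, 3.45 and 3.81 in wt/wt and 4.81, 4.87 and 5.24 in lox/lox cells, a log2 difference of 1.28. Hs6st2 was dim, below the array median on every array except lox/lox replicate 3. In Hs6st2 and Lefty1, as in Liph, the lowest array was wt/wt replicate 2 and the highest lox/lox replicate 3. In Ina the highest was also lox/lox replicate 3, but the lowest was wt/wt replicate 3 (6.20, against 6.29 in wt/wt replicate 2). By the same measure, applied to Plpp3 after its values were seen, the nearest genes were Gm9 (0.136), Rnd3 (0.139), and Epha4, an ephrin receptor (0.146). Rnd3 read 7.03, 7.43 and 7.22 in wt/wt and 6.09, 5.59 and 5.93 in lox/lox cells, a log2 difference of -1.36. All of these genes share the same 6 libraries and a large difference between the genotypes, which by itself brings their profiles close.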

How the data were processed

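RNA of 6 ES cell cultures, 3 per genotype, was hybridised to Affymetrix Mouse Gene 1.0 ST arrays. The authors deposited log2 values for 35556 probe sets, made with RMA and affy per the submitters' processing notes. Tool versions and the genome build: not given in the sources used here. RMA sets arrays to a like distribution, so a global change cannot be seen, and weak signals have compressed differences. Only 21789 probe sets with a single symbol were used, and each gene was represented by its brightest probe set, giving 19938 genes. The contrast lox/lox minus wt/wt was fitted by limma 3.58.1 (lmFit, eBayes; R 4.3.3), with Benjamini-Hochberg adjustment over all genes and calls under 0.05. The code was tested on simulated data.

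The members and lists were chosen with earlier results of these data known. The wider lists name up to 3 genes each by smallest p. The rule also names the members, Rad21, Rb1, the neighbours of Liph and Enpp2, and the 3 genes most like Liph. The p-values measure the spread between 3 samples per genotype, described by the submitters as biological replicates. Gene order, names and promoter sequences came from RefSeq (GRCm38.p6). Alternatives were quantile normalization, median centring, a filter on dim genes, and all probe sets with a single symbol. Others were trend and robust moderation, a block for the replicate number, fits without each array in turn, and a threshold of 0.01. Leaving out both arrays that stood apart was added after seeing the data.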

Additional observations from a re-analysis of the deposited data

How the results depend on the processing

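The LPA genes were chosen with this contrast in view, so their calls under other settings are no support for them. Without single arrays, Rad21 had log2 differences of -3.95 to -3.91. Over all genes, 1228 were called, 553 at an adjusted p under 0.01, 697 without both arrays that stood apart, and 626 to 1132 without single arrays. At 0.01 the list of LPA-making and related enzymes had 1 call, that of Lpl, the Yap and Srf list 2 and the neighbours 0. Without both arrays that stood apart these were 1, 2 and 0. Removing dim genes gave 1 call among G proteins and 2 among neighbours, and took Lipi, Lpar3, Enpp3, Gdpd1 and Lats2 out of the test. With trend and robust moderation the G protein list had 1 call. Quantile normalization left 0 neighbours called. Without single arrays the calls numbered 1 to 2 in the list of LPA-making and related enzymes. Those in the lists of LPA-consuming and related enzymes and of receptors numbered 0 to 1. The G protein list then had 0, the Yap and Srf list 2 to 5 and the neighbours 0 to 2. With the replicate number as a block, 1086 genes were called, 2 among neighbours, and the other counts were unchanged. The deviations of same-numbered arrays correlated at 0.101, -0.228 and -0.103, and 1 of 6 arrays correlated best with its own number, so the numbers were not taken as pairs. Each LPA gene had 1 probe set, so no second probe set could be compared. The number of arrays limits the precision.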

Other observations

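Liph cuts LPA from phosphatidic acid, which diacylglycerol kinases make. Dgka, the alpha kinase, came up among the 10 genes with profiles closest to Liph, and its family was then looked at, after its values were seen. Dgka read 7.17, 7.02 and 6.98 in wt/wt and 8.10, 8.43 and 8.50 in lox/lox cells. Its log2 difference was 1.29 (SE 0.11), a 2.44-fold higher level, and it ran from 1.21 to 1.41 when each array was left out. Dgka was called higher in limma. It was picked for a profile close to that of Liph, so a large increase was built into the choice. No p-value is therefore given for Dgka, and its call is no support. Dgke, the epsilon kinase, had a log2 difference of -0.53 (SE 0.11, limma adjusted p = 0.0181), from 6.21, 6.50 and 6.60 to 5.96, 5.77 and 5.98. Its call was lost in 3 fits, those leaving out wt/wt replicate 2, wt/wt replicate 3 and lox/lox replicate 2. The other 6 measured members did not pass. The 2 calls among 8 stand beside 6.16% of all genes, and since Dgka prompted the choice of the family, nothing is read from that count. The median over the 8 measured was -0.04.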
